A study of Mus musculus with 3 samples.

Results

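FOXF1 sites that lie deep inside protein-coding genes made up 22800 of the 51013 binding sites found in both replicates of fetal mouse lung (44.7%, 95% interval 44.3 to 45.1). A site was a pair of summits, 1 from each replicate, that were each other's nearest and at most 100 bp apart, and it was placed midway between them. It counted as deep when it lay between the annotated ends of a RefSeq protein-coding gene and over 1 kb from the end of any such gene. The part of a gene that meets this rule is called its interior below. FOXF1 had been mapped by chromatin immunoprecipitation and sequencing (ChIP-seq) in whole lungs of C57BL/6 mouse embryos at embryonic day 18.5, late in gestation. Each of the 2 biological replicates was a pool of 3 lungs, and the labels name no mutation, transgene or treatment. An input without antibody served as the control of the authors' peak calls, and a list for it was not analysed here. A whole lung holds endothelium, fibroblasts, smooth muscle, epithelium and blood cells, so a strong site in few cells and a weak site in many cells cannot be told apart.

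FOXF1 is a forkhead transcription factor of the lung mesenchyme and of the endothelium of its small vessels. Forkhead proteins bind short AT-rich sequences with a winged-helix domain, and some members of the family can bind nucleosomal DNA. Introns are a common place for enhancers, which can act on the gene around them or on another gene. Long genes can also have several starts, so that the promoter of a short isoform or of a noncoding RNA lies inside a longer gene.

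The sequences below are the 250 bases before 6 internal starts at which a deep site lay, and they are shown because such starts are where a reference sequence covers a site. They were taken from RefSeq on GRCm38.p6, run 5′ to 3′ on the strand of the transcript and end at the base before the start. Btbd3, Erg and Egfl7 are starts of the genes in which the sites lie, with high scores in both replicates, and they hold no exact match to the forkhead letters TGTTTAC or their reverse complement GTAAACA. Hdac7, Adipor2 and Gm30970 do, and the match is in capitals. Variants of these letters were not searched, and the Btbd3 and Egfl7 sequences hold TGTTTGC and TGTTTGT. Gm30970 is a long noncoding RNA (lncRNA) whose start lies inside Vwa8.
Btbd3, chr2:138278243-138278492, plus strand: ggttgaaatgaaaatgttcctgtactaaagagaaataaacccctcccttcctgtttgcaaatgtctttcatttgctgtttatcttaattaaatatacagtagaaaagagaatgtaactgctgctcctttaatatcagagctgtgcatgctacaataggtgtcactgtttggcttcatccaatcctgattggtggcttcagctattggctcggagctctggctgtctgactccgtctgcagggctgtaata
Erg, chr16:95459349-95459598, minus strand: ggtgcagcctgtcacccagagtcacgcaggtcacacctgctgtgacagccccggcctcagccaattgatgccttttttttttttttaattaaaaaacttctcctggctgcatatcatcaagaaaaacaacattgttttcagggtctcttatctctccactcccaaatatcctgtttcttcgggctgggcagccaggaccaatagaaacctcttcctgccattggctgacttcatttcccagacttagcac
Egfl7, chr2:26583615-26583864, plus strand: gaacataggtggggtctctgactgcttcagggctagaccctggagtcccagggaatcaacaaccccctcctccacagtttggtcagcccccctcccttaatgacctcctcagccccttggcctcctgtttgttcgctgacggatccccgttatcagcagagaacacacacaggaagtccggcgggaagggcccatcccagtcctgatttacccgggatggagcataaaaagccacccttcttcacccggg
Hdac7, chr15:97831768-97832017, minus strand: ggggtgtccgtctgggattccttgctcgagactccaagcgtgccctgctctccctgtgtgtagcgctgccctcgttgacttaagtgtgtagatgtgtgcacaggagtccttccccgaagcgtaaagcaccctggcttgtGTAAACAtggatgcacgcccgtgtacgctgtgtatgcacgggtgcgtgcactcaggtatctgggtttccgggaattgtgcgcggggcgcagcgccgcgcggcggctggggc
Adipor2, chr6:119388735-119388984, minus strand: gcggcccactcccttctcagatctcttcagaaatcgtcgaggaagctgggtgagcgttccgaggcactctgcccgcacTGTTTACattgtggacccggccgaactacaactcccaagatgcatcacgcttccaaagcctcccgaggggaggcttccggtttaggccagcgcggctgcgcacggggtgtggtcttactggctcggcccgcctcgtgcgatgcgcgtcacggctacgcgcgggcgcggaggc
Gm30970, chr14:79135218-79135467, minus strand: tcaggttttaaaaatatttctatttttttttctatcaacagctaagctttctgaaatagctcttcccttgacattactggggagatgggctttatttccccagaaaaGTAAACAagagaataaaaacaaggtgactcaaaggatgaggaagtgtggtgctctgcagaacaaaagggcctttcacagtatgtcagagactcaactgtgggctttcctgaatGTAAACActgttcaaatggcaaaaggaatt

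Deep sites also lay beside microRNA hairpins, and the mature microRNAs of 2 such pairs are shown because their members are related. The seed, bases 2 to 8, is in capitals. Mir199a-2 lies inside Dnm3 and Mir199b inside Dnm1, genes for the membrane-severing GTPases dynamin 3 and dynamin 1, and their 3p microRNAs have the same sequence. Mir15b and Mir16-2 lie in 1 cluster inside Smc4, a gene for a condensin subunit, and their 5p microRNAs share a seed.
miR-199a-3p: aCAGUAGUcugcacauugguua
miR-199b-3p: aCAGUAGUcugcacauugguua
miR-15b-5p: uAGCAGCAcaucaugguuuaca
miR-16-5p: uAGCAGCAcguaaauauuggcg

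Deep sites were denser than sites between genes and sparser than sites at gene ends. There were 23.1 deep sites per Mb over 988 Mb of gene interior. Outside genes and over 1 kb from their ends, but within 100 kb of one, there were 16.2 per Mb, a ratio of 1.42. Within 1 kb of a gene end there were 111 per Mb. The interior density was the higher of the first pair on 20 of 20 chromosomes, Y aside, with ratios from 1.06 on chromosome 1 to 2.04 on the X chromosome, and no deep site was found on Y. The X chromosome had the lowest interior density of the 20, at 9.53 per Mb. No test is given for this or any later difference between groups of sites or genes, since sites and genes are not replicates. Every interval is an exact 95% binomial one and covers counting error only.

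Most deep sites were far from the ends of their gene and near another site. The distance to the nearest protein-coding gene end had a median of 26.3 kb and quartiles of 8.72 and 64.2 kb, and reached 1130 kb. Of the 22800 sites, 22577 lay in exactly 1 gene and 223 in several overlapping ones, up to 24. The nearest other shared site was 4.99 kb away at the median, against 5.55 kb for sites between genes within 100 kb of a gene, 8.35 kb for those farther from genes and 10.8 kb for sites at gene ends. Just outside the 1 kb limit, the 390 sites inside genes at 801 to 1000 bp from an end had median scores of 31.3 and 16.5 in replicates 1 and 2. The 336 sites just inside it, at 1001 to 1200 bp, had 33.3 and 16.2. The score, the authors' −log10 significance of a summit, grows with read depth (not given in the sources used here), so it is compared below within a replicate or as a rank among the 51013 shared sites.

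The heights of deep sites were alike in rank in the replicates, and close to those of sites between genes. Across the 22800 deep sites the scores of the replicates had a Spearman correlation of 0.911, a description over sites that share libraries and input. The median score was 44.5 in replicate 1 and 17.4 in replicate 2, which are the percentiles 50.4 and 45.9 of all shared sites. Sites between genes within 100 kb of a gene had medians of 46.0 and 17.6. Sites at gene ends had 40.3 and 27.8, which are the percentiles 44.9 and 64.6. Deep sites therefore ranked above gene-end sites in replicate 1 and below them in replicate 2. In replicate 1 the deep share was 43.6% among the 10% of shared sites with the lowest scores and 47.4% among the 10% with the highest. In replicate 2 it was 51.1% and 42.5%, so the difference between these ends ran in opposite directions. Between the ends, replicate 1 had no steady course, with shares from 43.1% to 46.1%. Replicate 2 fell to 38.2% in the 10% of sites just below the highest, where replicate 1 had 46.1%. The share therefore rose into the highest 10% in both replicates.

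The difference between replicates followed annotated starts and gene ends. Of all deep sites, 36.4% ranked higher in replicate 2 than in replicate 1. It was 35.1% for sites between genes within 100 kb of a gene and 34.7% for those farther away. Ranks are relative, so a rise of gene-end sites lowers the others. Among the 540 deep sites in the window of an internal start of their own gene, from 250 bases before to 50 after it, the share was 86.9% (83.7 to 89.6). Among the 3580 sites in the start windows at gene ends it was 94.0% (93.2 to 94.8). It was 83.1% (82.0 to 84.1) among the 4999 gene-end sites outside start windows, so the shift was not confined to these windows. Among the 20448 deep sites over 1 kb from any annotated start it was 33.6% (33.0 to 34.3). Deep sites at lncRNA starts lay between these, at 59.1% of 115 (49.6 to 68.2). Over the start windows inside genes that held a site, the share grew with the number of CpG dinucleotides. It was 47.6% of 84 sites with 0 to 4 CpG, 74.8% of 258 with 5 to 19 CpG and 97.1% of 313 with 20 or more. With 2 libraries, it cannot be told apart whether the pools or the libraries differ.

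**Figure D1:**
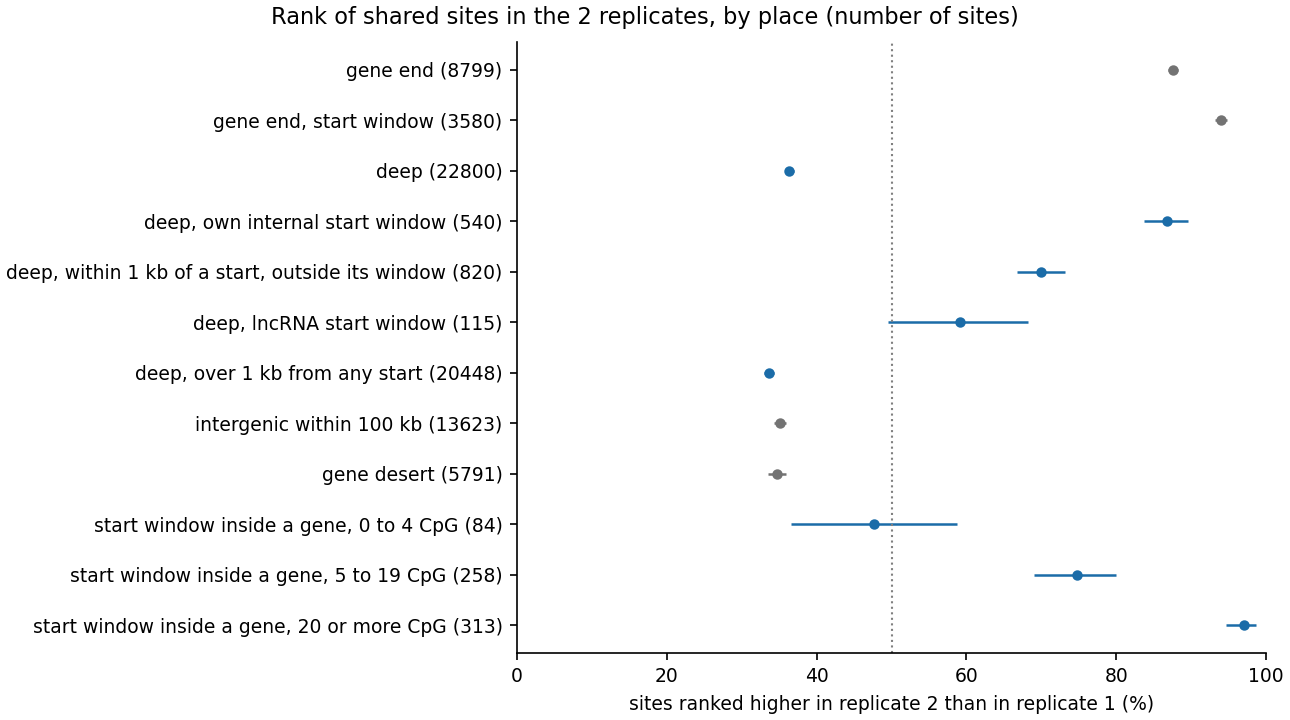
Share of shared FOXF1 sites that rank higher in replicate 2 than in replicate 1 (x axis, %), for each place of the site (y axis, number of sites in brackets). Points are shares, bars exact 95% intervals, and deep sites are in blue. Deep sites over 1 kb from any annotated start sit at 33.6%, beside the sites between genes. Deep sites in a start window of their own gene sit at 86.9%, beside the gene ends.

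Internal starts held sites less often than starts at gene ends, and more often than lncRNA starts. Of 3881 annotated starts of protein-coding genes that lay deep inside the same gene, 570 had a deep site in their window (14.7%, 13.6 to 15.8). Of 17382 protein-coding starts at gene ends, 3762 had a shared site (21.6%, 21.0 to 22.3). Of 2790 lncRNA starts deep inside genes, 147 did (5.27%, 4.47 to 6.16). The 570 windows belonged to 524 genes. Since a gene spans its outermost annotated ends, such a start can be the main start of its gene: 308 of the 524 genes had no annotated start within 1 kb of the outer end, and the internal start was 5.33 kb from the outer start at the median. Few deep sites lay near an annotated start: of the 21923 on chromosomes with start annotation, 975 (4.45%) were within 250 bp of one on either side. Start windows covered 17492 of the 21887 protein-coding genes, so sites near the starts of the others were not counted.

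The highest site in an internal start window was at Btbd3, a BTB-domain gene known for shaping neuronal dendrites. It scored 242 in replicate 1 and 142 in replicate 2, 188 bp before a start that lies 21.9 kb inside the gene. A start of Pde4b, a cyclic AMP phosphodiesterase, 483 kb inside its gene followed with 196 and 110. In Erg, an ETS-family factor of endothelial identity, the site was 88 bp before a start 127 kb inside the gene and scored 188 and 96.1. In Egfl7, which encodes a protein secreted by endothelium, it was 66 bp before a start and scored 131 and 92.7. In Hdac7, a class IIa histone deacetylase of endothelial cells and thymocytes, it was 90 bp before a start and scored 124 and 81.6. At Gm30970, the lncRNA inside Vwa8, the site scored 190 and 102. Each of these 6 ranked within the top 10% of shared sites in both replicates.

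Exact forkhead letters were rare in the start windows, with or without a site. Variants of them were not searched, so a window without a match can hold one. TGTTTAC or GTAAACA, on either strand, occurred in 25 of the 570 own-start windows with a site (4.39%, 2.86 to 6.41) and in 3.01% of all 3881. It occurred in 15 of the 147 lncRNA windows with a site (10.2%, 5.82 to 16.3) and in 4.55% of all 2790. Over all 32851 start windows the share was 3.65%. Where the letters and a site met in a window, the middle of the nearest match was within 50 bp of the site in 18 of 25 cases at own starts. It was so in 11 of 16 at lncRNA starts, where 1 more window is counted because its site, though not its start, lay deep inside a gene. Both had to lie in the same 300 bases, so some closeness was fixed in advance. How often other letters lie as close was not tested. Cases are windows, and P2ry14 is counted more than once. In Hdac7 the distance was 18 bp and in Adipor2, a receptor of the hormone adiponectin, 17 bp. When the 655 sites in start windows inside genes were cut into 3 groups by mean rank, the letters were present for 2.75% of the lowest group (1.02 to 5.89), 5.50% of the middle one (2.88 to 9.42) and 9.59% of the highest (6.03 to 14.3).

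Other letters differed more between own-start windows with a site and all own-start windows. The ETS letters CCGGAA, or TTCCGG, were in 27.2% of the 570 (23.6 to 31.0) and in 13.3% of all. The GC box GGGCGG, or CCGCCC, was in 59.6% (55.5 to 63.7) and in 38.5% of all. The AP-1 letters TGANTCA, which read the same on both strands in their fixed bases, were in 5.96% (4.17 to 8.24) and in 7.73% of all. The windows with a site were also richer in GC, with a median of 61.5% against 54.7%, and in CpG, with a median of 20 against 8. The part of base composition in the ETS and GC box shares was not tested. A match is a description of letters, and the sequence of the other deep sites was not analysed here.

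Deep sites lay nearer to the start of their gene than to its end. Of 17700 sites in exactly 1 gene of known strand, 56.1% were on the start side of the middle (55.3 to 56.8). At 1 to 2 kb into the gene, 760 sites lay on the start side and 197 on the end side, a ratio of 3.86. The ratio was 2.12 at 2 to 5 kb, 1.59 at 5 to 10 kb, 1.35 at 10 to 20 kb and 1.12 at 20 to 50 kb. At 50 to 100 kb it was 0.881, with 892 sites against 1013. Leaving out sites within 1 kb of any annotated start, an alternative added after the data were seen, lowered the first ratio to 2.26 and the overall share to 54.3% (53.5 to 55.1). The bias was largest in short genes: 67.8% of sites were on the start side in genes with interiors under 20 kb, 57.0% at 100 to 200 kb, 50.5% at 200 to 500 kb and 47.0% (44.8 to 49.2) above 500 kb. Cut into 10 equal parts of the gene's length, the sites had median scores from 39.4, in the part at the start, to 47.4 in replicate 1 and from 16.3 to 18.1 in replicate 2.

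**Figure D2:**
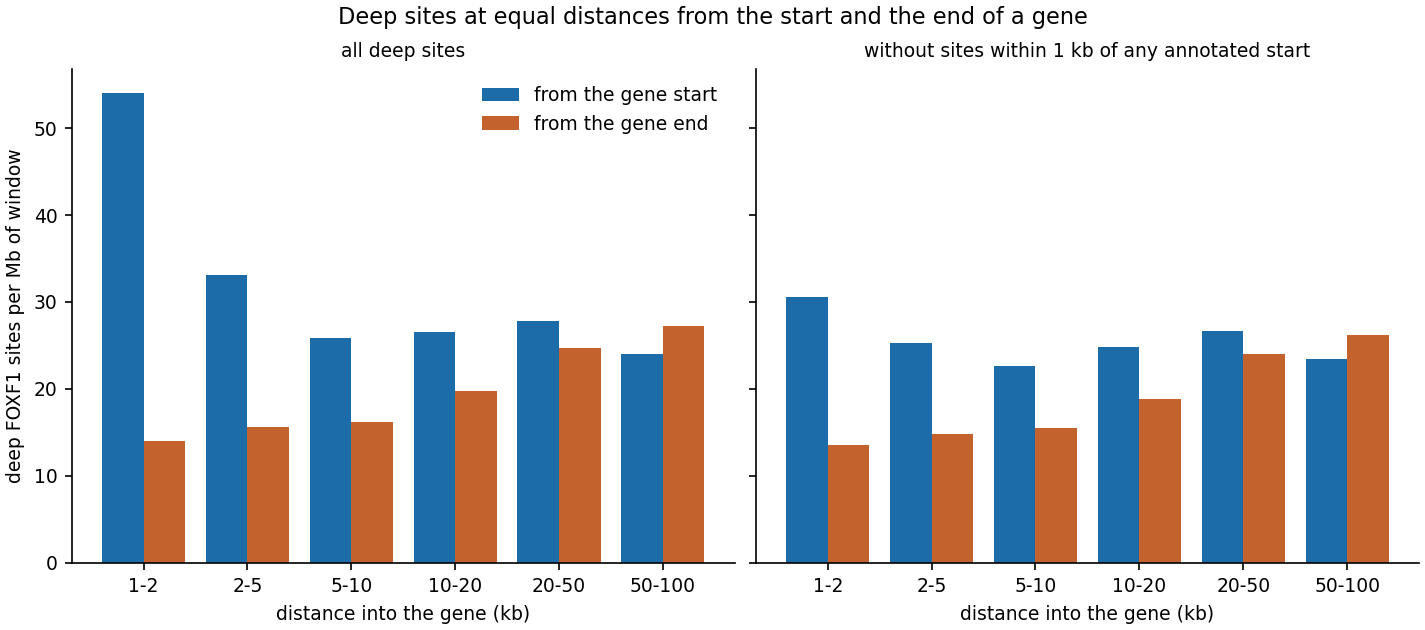
Deep FOXF1 sites per Mb of window (y axis) at equal distances from the start (blue) and from the end (orange) of a gene (x axis, kb), counted only in genes long enough that the windows from both sides do not meet. The left panel has all deep sites and the right one leaves out sites within 1 kb of any annotated start; at 1 to 2 kb the start side has 54.1 and 30.6 sites per Mb and the end side 14.0 and 13.5.

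The number of deep sites in a gene followed its length up to a point. Of 19256 protein-coding genes with an interior, 6459 held at least 1 deep site (33.5%). Of these, 2883 held exactly 1, while 544 genes with 10 or more held 8974 sites, 39.4% of all. The share of genes with a site was 13.8% for interiors under 20 kb, 36.8% at 20 to 50 kb, 61.4% at 50 to 100 kb, 77.9% at 100 to 200 kb, 85.3% at 200 to 500 kb and 89.3% above 500 kb. Pooled density did not follow: it was 22.3 sites per Mb under 20 kb, rose to 28.6 at 100 to 200 kb and was 13.0 above 500 kb. With the 10000 highest summits of each replicate alone, the share of genes with a deep site was 9.97%.

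The genes with the most deep sites were long ones with varied roles. Arhgap26, which encodes a GTPase-activating protein, held 75 in an interior of 762 kb, with scores from 6.10 to 241 in replicate 1 (median 50.2) and from 4.32 to 145 in replicate 2 (median 20.6). Lrmda held 52 and Wwox, which encodes a WW-domain oxidoreductase, 51. Foxp1, a forkhead factor that acts in lung airway epithelium among other tissues, held 51, and Frmd4a, a scaffold of cell polarity, 50. Bcas3 and the DNA repair gene Rad51b held 46 each, and Stard13, which encodes a protein with a START domain, 44. Prkce, which encodes protein kinase C epsilon, held 43, and Mecom, a zinc-finger factor of blood stem cells, 41. Per 100 kb these 10 ranged from 5.03 in Lrmda to 11.3 in Stard13.

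The densest genes were shorter. Among genes with an interior of at least 20 kb and at least 5 deep sites, Pdgfb had the most, 37.4 per 100 kb. It encodes the growth factor by which endothelium recruits pericytes, and its 10 sites had scores from 16.2 to 135 in replicate 1 and from 5.04 to 72.7 in replicate 2. Rara, the retinoic acid receptor alpha, followed with 31.6 per 100 kb from 13 sites, and the homeobox gene Hoxb3 with 28.7 from 10. The annotated span of Hoxb3 takes in the start of Hoxb4, so these 10 sites are not tied to Hoxb3 alone. Nsmce1 had 27.5, Sgf29, a chromatin-complex gene, 26.8, Pxdc1 26.3, Bcl9l, a coactivator of WNT signalling, 25.9 and the homeobox gene Hoxa3 25.2. Scnn1a, the alpha subunit of the epithelial sodium channel, had 24.4 and Cyb5r3, a cytochrome b5 reductase, 23.9. Heights varied among these genes: no site of Bcl9l scored above 38.5 in replicate 1 or above 21.4 in replicate 2, while the highest of Hoxb3 scored 188 and 80.3. The median scores of Rara were 22.2 and 9.73.

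The 5 longest interiors without a deep site belonged to genes with neuronal or sensory roles. They were Csmd1 with 1637 kb, Pcdh15, a cadherin of hair cells, with 1552 kb, Il1rapl1, a synaptic adhesion gene, with 1373 kb, Cdh12, a cadherin, with 1144 kb and Frmpd4, a postsynaptic scaffold, with 1104 kb. In the list of replicate 1 taken alone, Pcdh15 had 6 summits, Csmd1 had 2, and Cdh12 and Frmpd4 had 1 each. Of 17 genes without a deep site that were picked by length here or in the lists below, 4 had no deep summit in replicate 1 alone either.

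**Figure D3:**
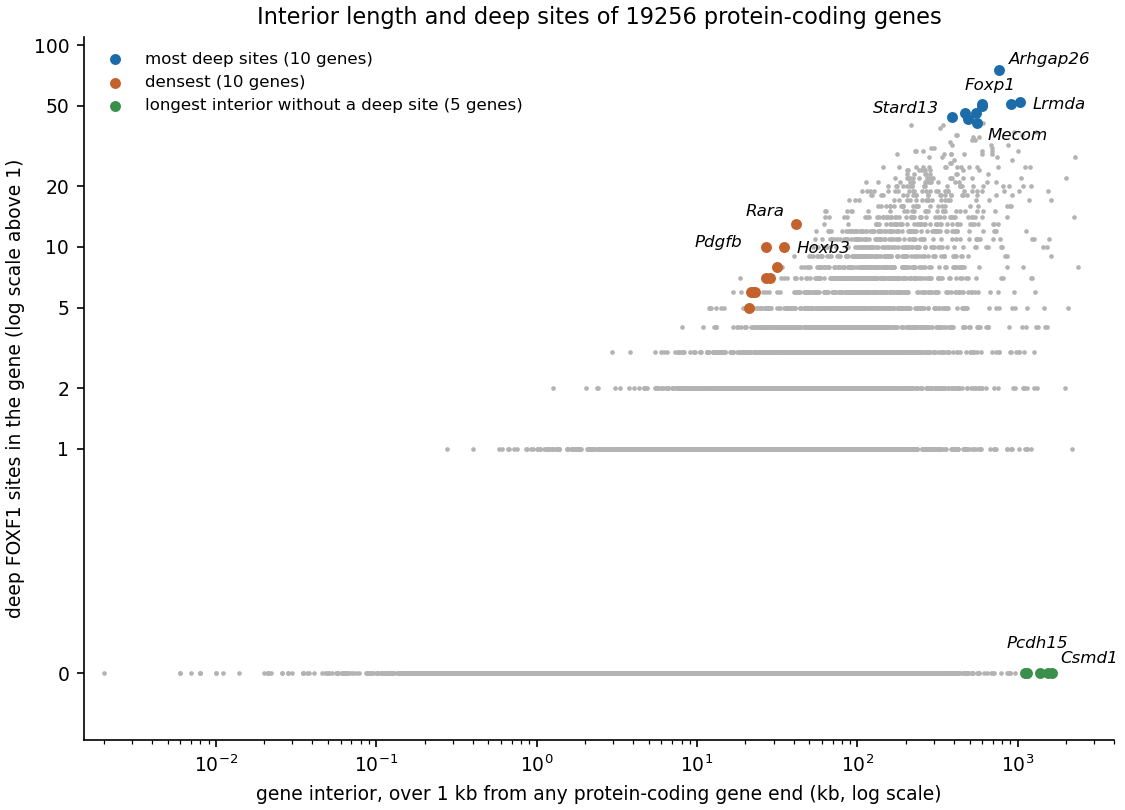
Number of deep FOXF1 sites (y axis, log scale above 1) against the length of the interior (x axis, kb, log scale) for 19256 protein-coding genes (grey points). Blue marks the 10 genes with the most deep sites, led by Arhgap26 with 75, orange the 10 densest, led by Pdgfb, and green the 5 longest without one.

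The 10 highest deep sites by mean rank lay in genes with between 1 and 52 deep sites. The highest was the only deep site of Upf2, a factor of nonsense-mediated RNA decay, at chr2 position 6015217, and scored 354.5 in replicate 1 and 232 in replicate 2. It lay 41.5 kb from the nearest gene end and 63.7 kb from any annotated start. The next were in Kif13a, a kinesin motor, with 340 and 198, and in Raver2, which encodes an RNA-binding protein, with 326 and 200. Lrmda had a site with 304 and 178, where both summits fell on the same base, and Foxp1 one with 308 and 171. Ghr, the growth hormone receptor, Denn2b and Bcas3 had sites from 282 to 288 in replicate 1 and from 163 to 166 in replicate 2. Ccbe1, which is needed for lymphatic vessels, and Ldlrad4, an inhibitor of TGF-beta signalling, had 294 and 167, and 299.98 and 160. The summits of the replicates were at most 35 bp apart at these 10 sites. All 8 whose chromosome has start annotation lay over 16 kb from any annotated start.

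Gene lists were then compared with the 33.5% of all 19256 genes that held a deep site. The 15 lists held 539 distinct genes, 20 of them on more than 1 list, and were chosen with earlier results of these data known, so their counts are descriptions. Of the 15 lists, genes marking endothelium had the highest pooled density and the largest share of high sites. Of 44 endothelial genes with an interior, 37 held a deep site (84.1%, 69.9 to 93.4), at a pooled 84.7 sites per Mb against 23.1 over all interiors. The share was above that of all genes in every length class: 10 of 15 under 20 kb, where 13.8% of all genes had a site, 7 of 9 at 20 to 50 kb, where 36.8% did, and all 20 above 50 kb. Of their 246 deep sites, 50 ranked in the top 10% of both replicates (20.3%, 15.5 to 25.9), against 8.52% of all deep sites. Their median scores were 60.0 and 25.04, against 44.5 and 17.4 over all deep sites.

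Within the endothelial list the number of deep sites ranged from 0 to 19. Erg and Ets1, both ETS-family factors, held 19 each, and Adgrf5, an adhesion G protein-coupled receptor, held 17. Flt1 and Nrp1, a VEGF receptor and a VEGF co-receptor, held 14 each, and Tek, the receptor of angiopoietins, and Prex2 held 13 each. Fli1 and Elk3, also ETS-family factors, held 12 and 11, Tspan18 11, Nrp2 10 and Calcrl 9. Pecam1, an endothelial junction protein, held 9, Kdr, the main VEGF receptor, 8 and Cdh5, the cadherin of endothelial junctions, 6. The transcription regulators Gata2, Lmo2 and Ets2 held 2 each and Tal1 held 1. The 7 without a deep site were Mmrn2, Nos3, Plvap, Robo4, Sox17, Stab1 and Tie1, of which Stab1, a scavenger receptor, had the longest interior at 27.5 kb, and 1 summit in the list of replicate 1 alone.

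In Kdr, Tek and Erg several deep sites were among the highest of all shared sites. The 8 sites of Kdr, spread from 4.43 to 45.2 kb from the outermost start, scored from 7.62 to 207 in replicate 1, with a median of 139, and from 4.10 to 104 in replicate 2, with a median of 68.7. Of these, 4 sites, at 4.43, 16.8, 32.6 and 37.1 kb, ranked in the top 10% of both replicates. Tek had 5 such sites among 13, led by one 87.9 kb from the start with 221 and 128. Erg also had 5, all between 123 and 147 kb from the outermost start, around the internal start printed above. The highest of these scored 257 and 140, and the other 14 sites of Erg scored from 19.1 to 125 in replicate 1 and from 6.54 to 51.4 in replicate 2. Foxp1 had 9 such sites among 51, and 6 of them lay from 502 to 552 kb from its outermost start.

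**Figure D4:**
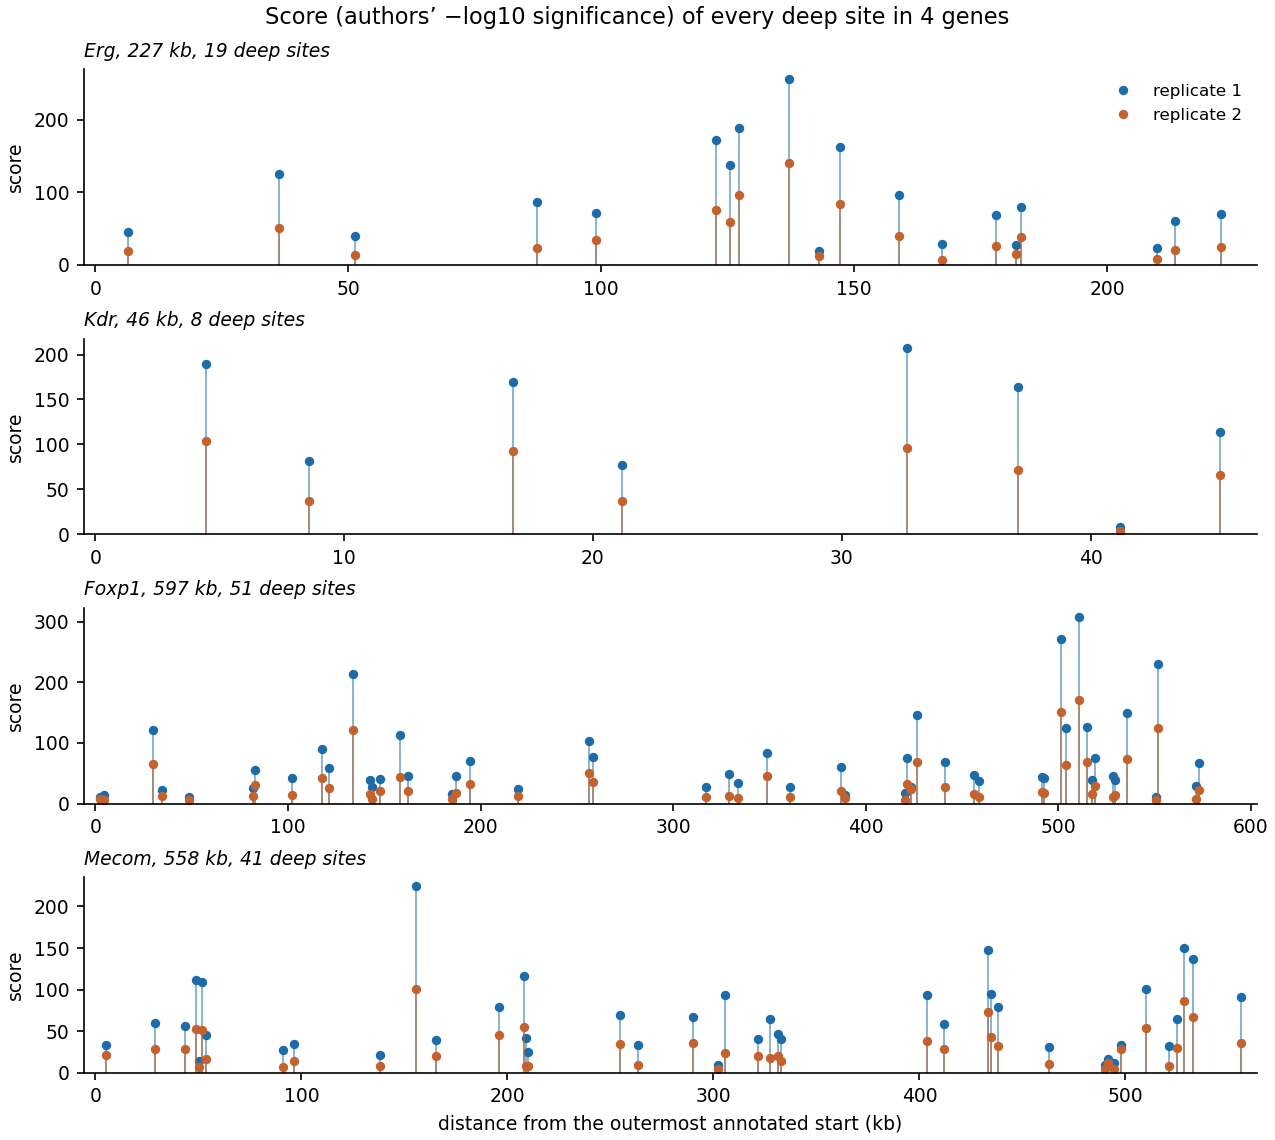
Score, the authors' −log10 significance, of every deep FOXF1 site (y axis) in Erg, Kdr, Foxp1 and Mecom against its distance from the outermost annotated start of the gene (x axis, kb), with replicate 1 in blue and replicate 2 in orange. High sites stand together in Erg, near 123 to 147 kb, and in Foxp1, near 502 to 552 kb, and are spread along Kdr; the heights of the replicates follow each other in all 4 genes.

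Mesenchymal lists also had a higher share of genes with a site than all genes, but their genes were longer, with median interiors of 72.8 kb for fibroblast and matrix genes and 42.7 kb for smooth muscle and pericyte genes against 19.3 kb. Of 40 fibroblast and matrix genes, 28 held a deep site (70.0%, 53.5 to 83.4), at 41.7 per Mb, and 7.73% of the 194 sites were in the top 10% of both replicates. None of 7 under 20 kb held one, against 13.8% of all genes, 5 of 9 did at 20 to 50 kb, against 36.8%, and 7 of 8 at 50 to 100 kb, against 61.4%. Col4a1 and Col4a2, neighbouring genes for basement membrane collagen, held 21 each, and Fbn1, for the microfibril protein fibrillin 1, held 17. The growth factor gene Fgf10 had the longest interior without a site on this list, 75.9 kb. Of 30 smooth muscle and pericyte genes, 19 did (63.3%, 43.9 to 80.1), at 41.5 per Mb, with 2 of 10 under 20 kb, 3 of 6 at 20 to 50 kb and all 4 at 50 to 100 kb. Mylk, which encodes myosin light chain kinase, held 30, Lpp, for a LIM protein of focal adhesions, 29, Prkg1, the cyclic GMP-dependent kinase, 25 and Cald1, for the actin-binding protein caldesmon, 20. Short contractile genes such as Acta2, Tagln and Cnn1 held none, and Notch3 had the longest interior without one, 44.1 kb.

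With length left aside, epithelial and blood lists had shares of genes with a site near that of all genes, but the epithelial list was denser. Of 35 epithelial genes, 12 held a deep site (34.3%, 19.1 to 52.2), at 41.7 per Mb, close to the mesenchymal lists. At 20 to 50 kb 6 of 8 did, against 36.8% of all genes. None of the 19 under 20 kb did, against 13.8% of all genes. Those 19 include the surfactant genes Sftpa1, Sftpb, Sftpc and Sftpd. Rtkn2 held 8, and Hopx, a homeodomain gene of flat alveolar epithelium, and Ehf, an ETS-family factor, held 5 each. Of 37 blood and immune genes, 10 held a deep site (27.0%, 13.8 to 44.1), at 21.0 per Mb. Their median interior was 33.4 kb, against 19.3 kb for all genes. By length, 1 of 15 under 20 kb held one, against 13.8% of all genes, and 1 of 8 at 20 to 50 kb, against 36.8%. It was 2 of 6 at 50 to 100 kb, against 61.4%, and 1 of 3 at 200 to 500 kb, against 85.3%. All 3 at 100 to 200 kb and the 2 above 500 kb held one. Arhgap15 held 21, the T cell adaptor Skap1 17 and the phosphatase gene Inpp5d 9, while Aoah had none in 241 kb. The list of proteasome, spliceosome and respiratory chain genes, which every cell uses, had 9 of 37 (24.3%, 11.8 to 41.2), and 14 of its 28 sites were in Cox10. Long neuronal genes had a site in 35 of 40, but over a median interior of 1039 kb, at 4.75 sites per Mb, the lowest density of the 15 lists. Above 500 kb 28 of 31 had one, at 4.71 per Mb, against 89.3% of all genes of that length, at 13.0 per Mb.

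Lists of signalling and cytoskeletal genes held sites in most members. All 37 genes of cyclic nucleotide and calcium signalling did, as did 42 of 43 genes of adhesion, junctions and actin. The median interiors of these lists were 306 and 102 kb, lengths at which 85.3% and 77.9% of all genes had a site. Their densities were 30.1 and 55.6 per Mb. Magi1, a junction scaffold, held 41 and Ptprm, a receptor phosphatase of cell contacts, 31. Tjp1, for the tight junction protein ZO-1, held 30 sites, of which 11 were in the top 10% of both replicates. The adhesion gene without a deep site was Zyx, for zyxin of focal adhesions.

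Among signalling pathways, deep sites were found in receptors, coactivators and inhibitors alike. Median interiors were 67.0 kb for BMP and TGF-beta, 96.1 kb for WNT and 89.4 kb for receptor tyrosine kinases and adaptors. At 50 to 100 kb, 61.4% of all genes had a site. The Notch list had a median of 33.5 kb, and 36.8% of all genes at 20 to 50 kb had a site. In the BMP and TGF-beta list 31 of 35 genes held a deep site (88.6%, 73.3 to 96.8), at 56.2 per Mb. Under 20 kb 5 of its 5 genes did, against 13.8% of all genes. Tgfbr3, the co-receptor betaglycan, held 25, with the highest at 285 and 128, Ltbp1, which binds latent TGF-beta, 22 and Ski, a repressor of SMAD proteins, 12. Tgfbr2, a TGF-beta receptor, and Smad6, an inhibitory SMAD, held 11 each, Bmpr2, a BMP receptor, 8 and Acvrl1, a BMP receptor of endothelium, 5. Bmpr1a had none in 90.3 kb. In the WNT list 32 of 40 did (80.0%, 64.4 to 90.9), at 40.0 per Mb, with 18 sites in Prickle2 and 16 in Daam1, both of planar cell polarity, and 14 in Ror1, a WNT receptor. In the Notch list 18 of 28 did (64.3%, 44.1 to 81.4), at 52.9 per Mb, and the coactivators Maml2 and Maml3 held 36 sites each. Among receptor tyrosine kinases and adaptors it was 33 of 40 (82.5%, 67.2 to 92.7), at 35.8 per Mb, with 25 sites in Igf1r, the insulin-like growth factor receptor. Of its sites, 29 were in the top 10% of both replicates (15.3%, 10.5 to 21.2). The list shares Flt1, Tek, Kdr, Flt4 and Tie1 with the endothelial one, and Tek held 5, Kdr 4 and Flt1 3 of these 29 sites.

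Transcription factor genes differed by length. All 46 on the list of transcription factors with long genes held a deep site, at 55.4 per Mb. Their median interior was 201 kb, and 85.3% of all genes at 200 to 500 kb held one. The list also had 1 gene under 20 kb, and 4 at 20 to 50 kb with a pooled 184 sites per Mb. Mecom held 41 sites, Nfib, a nuclear factor I gene needed for lung maturation, 40 and Tcf4, a basic helix-loop-helix factor, 40. The highest site of Nfib scored 274 and 130 and the median scores of its sites were 33.1 and 12.6. Of 22 forkhead genes with an interior, 9 did (40.9%, 20.7 to 63.6). None of the 10 under 20 kb did, against 13.8% of all genes. Besides Foxp1, Foxn3 held 19, Foxk1 and Foxo1 7 each and Foxp2 6, while Foxp4 had none in 55.5 kb.

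**Figure D5:**
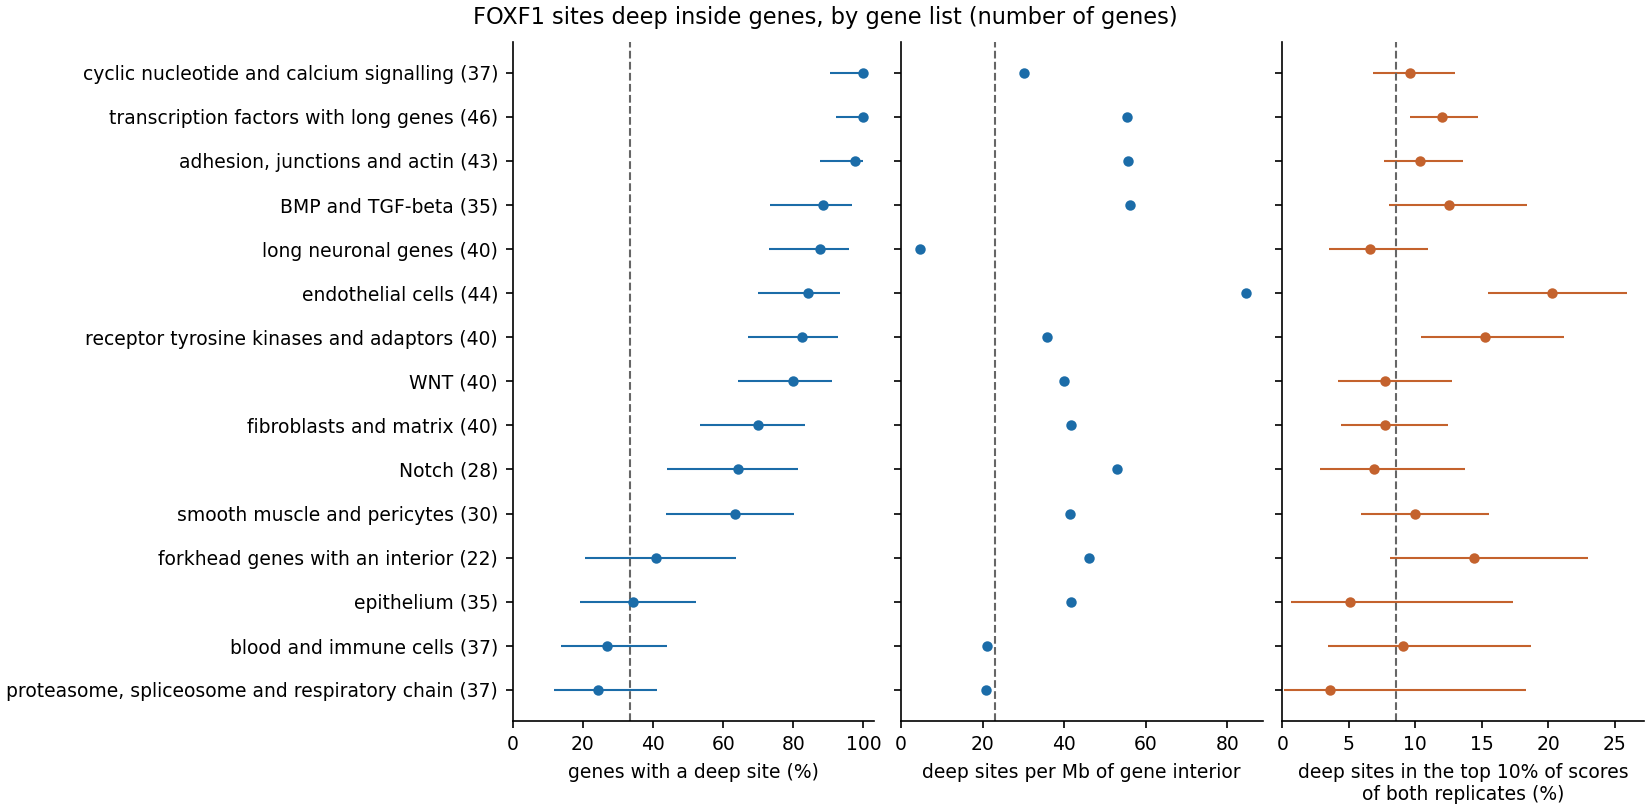
For 15 gene lists (y axis, number of genes with an interior in brackets): the share of genes with a deep FOXF1 site (left, %), the pooled density of deep sites per Mb of interior (middle), and the share of the list's deep sites in the top 10% of scores of both replicates (right, %). Bars are exact 95% intervals and dashed lines the values over all genes or all deep sites, 33.5%, 23.1 per Mb and 8.52%; the endothelial list is at 84.1%, 84.7 per Mb and 20.3%.

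Some microRNA hairpins had a deep site beside them. Of 1005 hairpins searched, 559 lay deep inside a protein-coding gene, and 48 had a deep site within 1 kb, from 45 sites. How often like stretches without a hairpin hold a deep site was not measured, so these counts are a description. The site in Dnm3 at chr1 position 162217686 was 128 bp upstream of the hairpin of Mir199a-2 and 63 bp downstream of the start of Dnm3os, the noncoding RNA that carries it and Mir214. It scored 55.8 in replicate 1 and 47.5 in replicate 2. A second site inside Dnm3, 552 bp downstream of the hairpin of Mir214, was weak in both, with 9.54 and 7.23. The site in Dnm1 at chr2 position 32318339 was 121 bp upstream of the hairpin of Mir199b, and scored 34.0 and 30.3. It also lay inside another annotated hairpin, Gm23363. The other hairpin of miR-199a-3p, Mir199a-1, had no deep site within 1 kb. A single site 283 bp upstream of Mir15b and 413 bp upstream of Mir16-2, in Smc4, scored 24.6 and 7.78. The highest site beside a hairpin, near Mir7655 in Mllt10, scored 108 and 90.9.

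The 10 deep sites nearest to a noncoding RNA start were all at lncRNAs, 1 to 10 bp away. Their scores ranged from 17.7 to 104 in replicate 1 and from 7.78 to 57.8 in replicate 2. The highest were at Gm32059 in Bicra, with 104 and 57.8, and at a lncRNA in Etv6, an ETS-family gene, with 102 and 46.5. The nearest, at Gm52312 in Synj2, scored 41.2 and 11.2.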

How the data were processed

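The authors deposited 1 list of MACS2 summits for each replicate on mm10, per the submitters' processing notes, with the input as control per the peak names. Each deposited score is a −log10 significance, and whether of a p or a q value is not stated. No source used here gives the aligner, MACS2 options or read depth. Replicate 1 had 107378 summits on nuclear chromosomes and replicate 2 had 61172, and 10 and 6 mitochondrial ones were left out.

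Summits were paired within 100 bp as described below, and the 51013 sites were classed against 21887 RefSeq protein-coding genes (GRCm38.p6, the assembly of mm10). Exons and introns were not told apart. Strand and starts came from RefSeq start windows, which cover 17492 of these genes and none on chromosome 18. Motifs were searched as exact letters on both strands. Genes were picked for naming by rule: those with the most sites (10), the densest (10), hosts of the 10 highest sites, and the 5 longest without a site. Per list the top 3 and the longest without a site were also picked, and some of the genes picked are not named above. Other members are named as examples, chosen after their values were seen. The members and lists were chosen with earlier results of these data known, and 1 further gene list is not reported here. The pairing and classing were tested on simulated summits. Python 3.11.15 with pandas 2.3.3 and scipy 1.17.1 was used.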

Additional observations from a re-analysis of the deposited data

Results flagged for a closer look

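Many summits deep inside genes were found in 1 replicate alone and entered no comparison. Replicate 1 had 28793 deep summits with no partner, 51.1% of its 56365 unpaired summits (50.7 to 51.5), and replicate 2 had 4480, 44.1% of its 10159 (43.1 to 45.1). They are listed here because they are deposited data outside the shared sites. They were lower than the paired deep summits: their median score was 10.2 against 44.5 in replicate 1, and 9.999 against 17.4 in replicate 2.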

How the results depend on the processing

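The deep share of shared sites was 44.7%, the ratio of deep to intergenic density 1.42, the share of genes with a deep site 33.5% and the share of sites on the start side 56.1%. No alternative brought the density ratio below 1 or the start-side share below 50%. Pairing within 50 or 200 bp gave 31.7% and 34.6% of genes. A score of at least 10 in both replicates gave a deep share of 43.2%, a ratio of 1.40 and 29.2% of genes. The 10000 highest summits of each replicate gave 46.1%, 1.29, 9.97% and, on the start side, 53.6%. Setting the limit at 2 kb from gene ends gave 42.0%, 1.41 and 54.7% on the start side, and 5 kb gave 37.4%, 34.8% of genes and 53.3%. The ends of all annotated genes gave 43.1%, 1.76 and 32.8% of genes, and sites inside exactly 1 gene a deep share of 44.3%. Without sites within 1 kb of any annotated start, added after the data were seen, the values were 50.3%, 1.39, 30.7% and 54.3%. The list of 1 replicate alone gave deep shares of 44.6% to 48.0%, ratios of 1.48 to 1.50, 35.7% to 47.1% of genes and start-side shares of 56.3% to 57.2%. Median percentiles of deep sites were 46.7 in replicate 1 alone and 44.9 in replicate 2 alone, against 50.4 and 45.9. Counts were compared for the 86 genes picked for naming by rule. In replicate 1 alone, 67 had counts over 1.5 times apart from the main ones, or at 0 in only 1 of the pair. So did 10 in replicate 2 alone, 67 with the 10000 highest summits and at most 10 under any other setting. The cause was not tested. No paired analysis was possible because the replicates form 1 group and no test compares groups. Read depth, which sets how many weak sites are called, was not given, and 2 replicates allow no test between libraries. Site sequence away from annotated starts was not analysed here.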
